A study of Homo sapiens with 16 samples.

Results

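The 46 genes described here encode the machinery of mitosis and the spindle: the cyclins, kinases and phosphatases that start division, the spindle checkpoint, the anaphase-promoting complex (APC/C) and its substrates, kinetochore proteins, motor proteins and the proteins that split the cell. They were taken by gene symbol from the array annotation, and all 46 were found among the 19775 genes that have a probe set of their own. Each gene is given by its probe set with the highest mean signal, and the calls that change with the mean of all its probe sets are given together after the role groups. Transcripts of 4 long-established lines of acute myeloid leukaemia (AML) were measured on 16 Affymetrix arrays. The human lines were AML-193, of monocytic origin, HNT-34, which carries a MECOM rearrangement, KG1a, an immature line, and HL60, of promyelocytic character. In each line 1 group received azacitidine (AZA), a cytidine analogue that enters nucleic acids and traps DNA methyltransferases, at 0.5 µM daily for 3 days, followed by 4 days in medium free of drug. The other group of the line received the vehicle, DMSO, on the same schedule, and every group had 2 arrays. All groups grew in light-label SILAC medium. Each line is a single culture model, and whether the 2 arrays of a group stand for separate cultures is not stated. The p-values therefore cover no more than the spread between these samples, part or all of which may be technical. The arrays average over all cells of a pellet, so fewer cells in mitosis and less RNA per cell cannot be told apart.

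Division runs on the CDK1 kinase, which becomes active with cyclin A and cyclin B when CDC25 phosphatases remove its inhibitory phosphates. The kinetochores then attach chromosomes to spindle microtubules, and a checkpoint built from BUB and MAD proteins holds back the APC/C until every chromosome is attached. The APC/C, with its activator CDC20, then tags securin and cyclin B for destruction, separase cuts cohesin, and a contractile ring divides the cell. Most of these genes are transcribed in late S, G2 and M phase and are repressed in resting cells by the DREAM complex, whose MuvB core binds a promoter element called CHR, while the activator NF-Y binds CCAAT boxes. In AML cells their level is commonly read as a sign of proliferation.

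These elements can be seen in the promoters of genes on which the results below turn, so the 110 bases upstream of the start are shown for 6 of them, in the direction of transcription, from RefSeq on GRCh38.p14. BUB1 led the rises in HNT-34, CDC20 and KIF20A led those in HL60, HMMR was called in 3 lines, CCNB2 was called higher in HNT-34 and KIF4A in both HNT-34 and HL60. Capitals mark CHR letters (TTTGAA or TTCGAA) and CCAAT boxes (CCAAT), each on either strand.
BUB1, chr2:110678064-110678173, minus strand: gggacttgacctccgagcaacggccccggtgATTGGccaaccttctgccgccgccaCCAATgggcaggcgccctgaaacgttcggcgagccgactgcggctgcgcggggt
CDC20, chr1:43358871-43358980, plus strand: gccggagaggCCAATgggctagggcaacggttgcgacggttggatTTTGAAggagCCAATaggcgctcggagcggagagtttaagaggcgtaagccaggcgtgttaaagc
KIF20A, chr5:138179002-138179111, plus strand: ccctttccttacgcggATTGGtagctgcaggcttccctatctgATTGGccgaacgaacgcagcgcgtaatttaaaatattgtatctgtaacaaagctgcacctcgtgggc
HMMR, chr5:163460522-163460631, plus strand: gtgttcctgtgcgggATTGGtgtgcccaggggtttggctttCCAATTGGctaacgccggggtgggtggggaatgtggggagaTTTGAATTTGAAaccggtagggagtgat
CCNB2, chr15:59105036-59105145, plus strand: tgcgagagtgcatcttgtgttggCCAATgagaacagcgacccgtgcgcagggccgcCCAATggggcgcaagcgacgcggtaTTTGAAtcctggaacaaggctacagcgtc
KIF4A, chrX:70289994-70290103, plus strand: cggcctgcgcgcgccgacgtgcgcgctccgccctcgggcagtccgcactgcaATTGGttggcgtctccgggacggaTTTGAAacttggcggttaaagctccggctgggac
Windows of 300 bases, 250 before and 50 after the start, were available for 39 of the 46 genes. The other 7 were FOXM1, AURKA, BUB3, TTK, UBE2C, BIRC5 and TPX2. Of the 39 windows, 29 (74.4%) held CHR letters and 30 (76.9%) held a CCAAT box, against 16.7% and 35.7% of 27305 genes with a window. Both together were found in 24 windows (61.5%), against 6.64% of all genes. Among the genes tested below, 11.8% held CHR letters, 36.3% a CCAAT box and 4.91% both. E2F letters (TTTNNCGC) were found in 4 of the 39 windows (10.3%), against 6.94% of all genes and 9.91% of the genes tested. The BUB1 window held its CHR letters outside the stretch shown, and that of KIF20A held none. HMMR held 5 CCAAT matches, of which 2 overlap on opposite strands in the letters CCAATTGG, and 2 CHR matches. CCNB2, TOP2A, ASPM and CENPF each held 4 CCAAT matches, counted on both strands, with at least 1 CHR match. CDC25B, CDC25C, CENPE and KIF2C held none of the 3. The windows of these genes carried a median of 24 CG pairs, against 25 in the genes tested and 13 in all genes with a window. A match in letters is a description of the window and not a bound site.

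All 46 genes passed the filter on dim signals, which kept 14038 genes. Under vehicle alone the level of all 46 differed between the 4 lines (limma F-test, adjusted p at most 0.0243, that of CDC25C, over all genes tested), where 85.1% of all genes tested did. The median vehicle signal of the 46 genes was 11.16 log2 units in AML-193, 10.37 in HNT-34, 11.09 in KG1a and 10.90 in HL60, while the median over all genes tested lay between 8.97 and 9.05. By brightest probe set AML-193 had the highest vehicle level of 26 of the genes, KG1a of 17, HNT-34 of 2 and HL60 of 1. Other probe sets of a gene can give another order, as for HMMR below, and the order was not counted on them. HNT-34 had the lowest level of 28 of them. Between HNT-34 and KG1a, 6 genes were higher and 35 lower in HNT-34, where 27.8% and 24.7% of all genes tested were. Between AML-193 and HNT-34, 33 were higher and 5 lower in AML-193, where 32.7% and 33.3% of all genes were. Between HNT-34 and HL60, 6 were higher and 26 lower in HNT-34 (27.4% and 29.6% of all genes), and between KG1a and HL60, 29 were higher and 9 lower in KG1a (27.2% and 34.6%). Between AML-193 and HL60, 28 were higher and 5 lower in AML-193 (32.3% and 33.7%), and between AML-193 and KG1a, 24 were higher and 13 lower in AML-193 (34.4% and 30.6%).

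**Figure D1:**
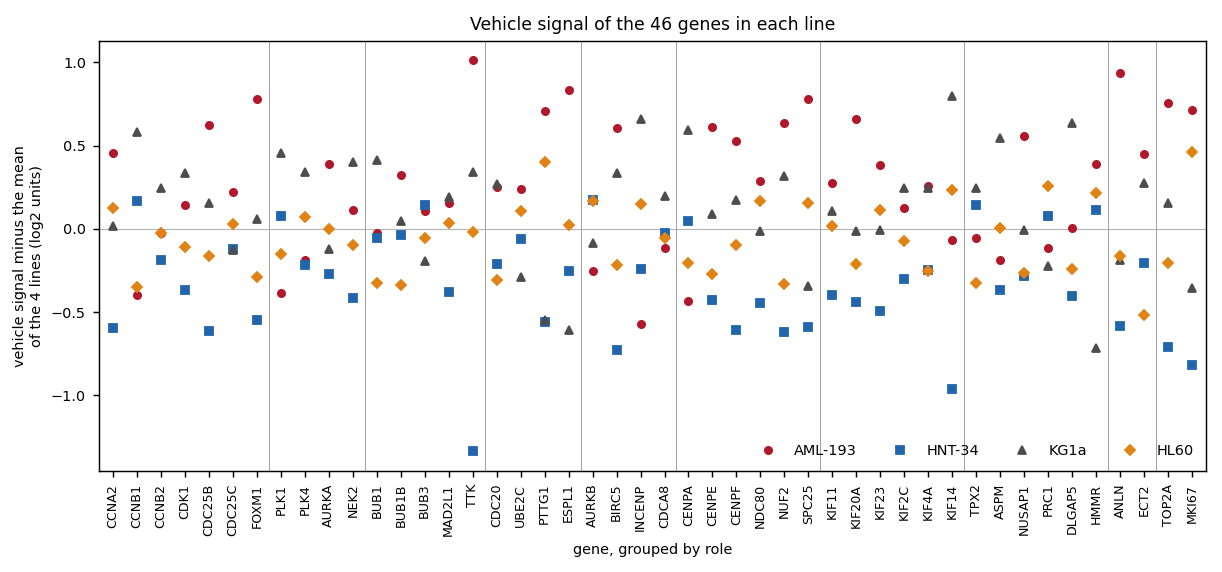
Vehicle signal of each gene in each line, as log2 units above or below that gene's mean of the 4 lines (points are means of 2 arrays, vertical lines part the role groups). By brightest probe set HNT-34 lies lowest for 28 of the 46 genes, with TTK and KIF14 farthest down, and AML-193 or KG1a lies highest for most.

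TTK, the MPS1 kinase that switches the spindle checkpoint on, had the widest range. Its vehicle arrays read 11.78 and 11.60 in AML-193, 9.35 and 9.34 in HNT-34, 11.05 and 10.98 in KG1a, and 10.64 and 10.68 in HL60. All 6 pairs of lines differed for it, and its level was highest in AML-193 and lowest in HNT-34 by 2.35 ± 0.07 log2 units. KIF14, a motor of the midbody, followed, with means of 10.29 in AML-193, 9.39 in HNT-34, 11.15 in KG1a and 10.59 in HL60. For HMMR, a microtubule-binding protein of the spindle, KG1a stood lowest at 10.86 by brightest probe set. On that probe set the means of 11.97 in AML-193 and 11.79 in HL60 were not shown to differ (limma, adjusted p = 0.0947). The other HMMR probe set gave another order, with vehicle means of 9.97 in AML-193, 10.88 in HNT-34, 10.04 in KG1a and 11.08 in HL60. For CDC20 the levels of AML-193 (11.78) and KG1a (11.80) were not shown to differ (adjusted p = 0.908), nor were those of HNT-34 (11.32) and HL60 (11.22, adjusted p = 0.353).

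The vehicle arrays of AML-193 and the AZA arrays of HL60 stood apart from the others in their control signals. For the control probe sets of ACTB and GAPDH, the 3′ end minus the 5′ end (a difference called the 3′ minus 5′ signal, commonly used to judge RNA integrity and labelling) averaged 0.198 ± 0.043 log2 units in AML-193 with AZA and 1.266 ± 0.463 with vehicle (SD, n = 2 each). In HL60 it averaged 0.722 ± 0.163 with AZA and 0.044 ± 0.012 with vehicle. It averaged -0.102 ± 0.014 with AZA and -0.003 ± 0.108 with vehicle in HNT-34, and 0.059 ± 0.001 with AZA and 0.03 ± 0.129 with vehicle in KG1a. The poly-A controls, RNAs spiked in before labelling, averaged 9.241 with AZA and 10.24 with vehicle in AML-193, and 10.199 with AZA and 9.382 with vehicle in HL60. The hybridization controls averaged 11.676 with AZA and 12.192 with vehicle in AML-193, and 12.095 with AZA and 11.915 with vehicle in HL60. The same arrays enter the comparison of vehicle levels, and the part of these control signals in the results was not tested beyond the covariate used below. Replicate arrays correlated across genes at 0.995 to 0.998 and arrays of different treatment within a line at 0.969 to 0.989, where genes are not independent replicates. Of the myeloid markers, MPO read 14.79 with AZA and 14.4 with vehicle in HL60, MECOM 11.9 with AZA and 12.41 with vehicle in HNT-34, and CD34 12.43 with AZA and 12.55 with vehicle in KG1a. In AML-193 MPO read 13.67 with AZA and 10.56 with vehicle, LYZ 12.78 with AZA and 11.97 with vehicle, and CD14, a defining monocyte marker, only 7.52 with AZA and 5.87 with vehicle. ELANE, neutrophil elastase, read 13.41 with AZA and 9.74 with vehicle in AML-193 and 14.21 with AZA and 11.44 with vehicle in HL60, where CD14 read 10.11 with AZA and 8.5 with vehicle. MPO, ELANE and CD14 read 5.9, 5.55 and 5.87 with vehicle in HNT-34. In KG1a they read 6.75, 5.26 and 5.9 with vehicle, so all were near or under the array median of 6.73 in these 2 lines. In HNT-34 CD34 read 10.49 with AZA and 11.74 with vehicle, and the erythroid factor GATA1 10.32 with AZA and 7.97 with vehicle. In KG1a GATA1 read 9.75 with AZA and 8.11 with vehicle, KIT 10.92 with AZA and 9.08 with vehicle, and CD3D, a T cell marker, 9.54 with AZA and 7.41 with vehicle. Of 12 myeloid markers tested, 8 rose and 1 fell in AML-193, 1 rose and 4 fell in HNT-34, 3 rose and 0 fell in KG1a, and 6 rose and 3 fell in HL60. Of 7 lymphoid markers 3 rose and 1 fell in AML-193, 3 and 2 in HNT-34, 4 and 0 in KG1a and 3 and 1 in HL60, and of 5 erythroid markers 1 and 0, 2 and 0, 1 and 1 and 1 and 1 in the same order of lines. With the covariate no lymphoid or erythroid marker was called in AML-193 or HL60. Of 12 markers of cells outside the blood, 5 were below the filter (EPCAM, KRT19, CDH1, COL1A2 and COL3A1), while KRT18 read 12.32 with AZA and 12.74 with vehicle in HNT-34, VWF 11.44 with AZA and 11.88 with vehicle, and CDH5 9.45 with AZA and 9.87 with vehicle. The part of these markers in the results was not tested.

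After AZA, mitosis and spindle genes were higher more often than lower in HNT-34 and HL60, split in both directions in AML-193, and nearly all short of the threshold in KG1a. In HNT-34 15 of the 46 rose and 1 fell, where 15.4% of all genes tested rose and 14.8% fell, and the median change of the 46 was 0.16 log2 units against 0.01 over all genes. In HL60 24 rose and 4 fell, where 25.2% and 16% of all genes did, with medians of 0.27 and 0.05. In AML-193 10 rose and 13 fell, where 20.7% and 20.3% did, with medians of -0.12 and 0.02. In KG1a 1 rose and 0 fell by limma's test, where 6.56% and 3.37% of all genes did, with medians of -0.01 and 0.02 and changes from -0.26 to 0.37. At an unadjusted p under 0.05, 3 of the 46 were higher and 2 lower in KG1a, where 13.4% and 9.34% of all genes were. With the mean of all probe sets and adjusted p-values 2 rose and 1 fell there, where 6.55% and 4.0% of all genes did. With the covariate described below, 1 rose and 0 fell in KG1a, where 7.67% and 4.35% did. Both AZA arrays lay above both vehicle arrays for 29 of the 46 genes in HNT-34 and below them for 9, where 35.2% and 33.3% of all genes did. The corresponding counts were 33 and 7 in HL60 (41.2% and 28.3% of all genes), 14 and 22 in AML-193 (35.9% and 33.4%) and 8 and 11 in KG1a (28.8% and 23.5%). Counting only called changes of at least 0.5 log2 units, 3 rose and 0 fell in HNT-34 (6.90% and 5.88% of all genes), 7 rose and 2 fell in HL60 (10.5% and 7.05%), 1 rose and 1 fell in AML-193 (8.25% and 7.74%), and 0 rose and 0 fell in KG1a (3.40% and 0.969%). As shares, 32.6% of the 46 rose in HNT-34 and 52.2% in HL60, and 8.7% fell in HL60 and 28.3% in AML-193.

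The counts of AML-193 rest on few arrays. Leaving out any 1 of its 4 arrays left 2 to 5 genes called higher in place of 10, and without vehicle array 1 the number called lower was 6 in place of 13. With the mean of all probe sets 17 genes rose and 11 fell in AML-193, where 21.4% and 17.4% of all genes did, and the median was 0.07. With the 3′ minus 5′ signal as a covariate none of the 46 passed limma's test in AML-193 in either direction, where 1.54% and 1.12% of all genes did. At an unadjusted p under 0.05, 1 was then higher and 2 lower, where 9.96% and 7.12% of all genes were. In HL60 7 then rose (CDC25C, CDC20, UBE2C, KIF20A, ASPM, NUSAP1 and ECT2) and 1 fell (INCENP), where 9.67% and 5.66% of all genes did, and the signs of all 28 genes called before held. With the mean of all probe sets 16 rose and 10 fell in HL60, where 19.7% and 19.8% of all genes did. In HNT-34 17 rose and 1 fell with the covariate (16.7% and 15.8% of all genes). With the mean of all probe sets 15 rose and 0 fell there by limma's test (15.2% and 14.5% of all genes), and 18 and 1 at an unadjusted p under 0.05 (19.6% and 18.8%). The slope of the covariate is set by how the arrays within each group differ, which limits how well it is known. Of the 4 genes lower in HL60, 2 were called without vehicle array 2 or without AZA array 1. The 1 gene lower in HNT-34, ECT2, lost its call without AZA array 2.

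**Figure D2:**
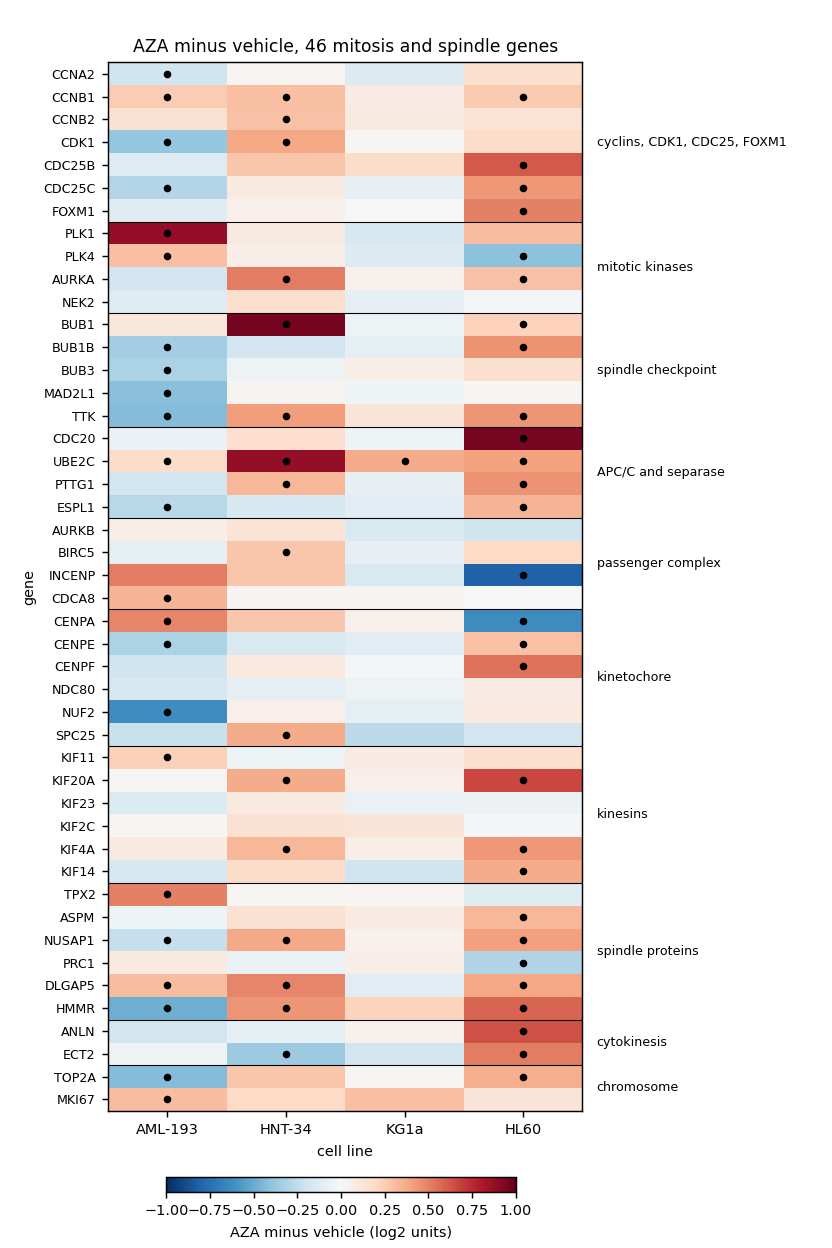
AZA minus vehicle in log2 units (colour scale from -1 to 1) for the 46 genes by role (rows) and cell line (columns), with a dot where the adjusted p was under 0.05. HNT-34 and HL60 are mostly red with 15 and 24 genes called higher, AML-193 holds 10 higher and 13 lower, and KG1a has a single dot, at UBE2C.

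AURKA, BUB1, CCNB1, DLGAP5, HMMR, KIF20A, KIF4A, NUSAP1, PTTG1, TTK and UBE2C were called higher in both, which is 73.3% of the 15 in HNT-34 and 45.8% of the 24 in HL60. Over all genes tested the shares were 40.9% of those higher in HNT-34 and 25% of those higher in HL60, and 52.2% of all 46 genes were higher in HL60. UBE2C was the single gene called higher in every line. Of the 13 genes lower in AML-193, 8 (61.5%) were higher in HL60: BUB1B, CDC25C, CENPE, ESPL1, HMMR, NUSAP1, TOP2A and TTK. Of all genes lower in AML-193, 40.3% were higher in HL60, as were 52.2% of all 46 genes. Of the same 13, CDK1, HMMR, NUSAP1 and TTK (30.8%) were higher in HNT-34. The share was 32.6% among all 46 genes and 11.4% among all genes lower in AML-193. These overlaps were counted on the brightest probe sets and not tested. By those probe sets AURKB, KIF23, KIF2C, NDC80 and NEK2 were called in no line.

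Of the 7 regulators of entry into mitosis, 3 rose in HNT-34, 4 rose in HL60, and 1 rose and 3 fell in AML-193. By the mean of all probe sets the counts were 2 higher and 0 lower in HNT-34, 3 and 2 in HL60, and 3 and 0 in AML-193, where the median was 0.19 in place of -0.13. For each role group by brightest probe set, here and below, the shares of all genes tested stand beside the counts. They were 15.4% higher and 14.8% lower in HNT-34, 25.2% and 16% in HL60, 20.7% and 20.3% in AML-193, and 6.56% and 3.37% in KG1a. The shares given earlier for the mean of all probe sets apply to the counts by that mean. CCNB1, which encodes the main cyclin of mitosis, rose by 0.25 ± 0.09 in AML-193, 0.30 ± 0.09 in HNT-34 and 0.26 ± 0.09 in HL60 (± gives limma's standard error, with n = 2 arrays per group), and was at 0.08 ± 0.09 in KG1a. CCNB2 rose in HNT-34 (0.29 ± 0.08, adjusted p = 0.0111) and was at 0.15, 0.09 and 0.14 in AML-193, KG1a and HL60. With its other probe sets, which were below the filter, its mean was -0.12 in HNT-34. CDK1, the kinase they activate, rose in HNT-34 by 0.39 ± 0.08 (1.31-fold, adjusted p = 0.00324). In AML-193 its brightest probe set fell by 0.39, while its 3 other probe sets rose, by 0.51, 0.81 and 1.07, and those 3 fell in HL60, by 0.80, 1.06 and 1.29.

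CCNA2, the cyclin of S phase and early mitosis, fell by 0.20 ± 0.07 in AML-193 and did not pass elsewhere by its brightest probe set. Its second probe set rose by 1.24 in AML-193 and fell by 1.25 in HL60, and the mean of both was 0.52 in AML-193 and -0.55 in HL60. CDC25B, a phosphatase that starts CDK1 activation at the centrosome, rose in HL60. Its HL60 arrays read 11.37 and 11.22 with AZA, against 10.70 and 10.67 with vehicle, so the groups did not overlap, and the change was 0.61 ± 0.11 (1.53-fold, adjusted p = 0.000583). CDC25B was at 0.28 in HNT-34 (adjusted p = 0.0673) and 0.18 in KG1a. CDC25C, its relative in mitosis, rose in HL60 (0.43 ± 0.11) and fell in AML-193 (-0.29 ± 0.11), where its arrays overlapped between the groups. Another of its probe sets fell by 0.71 in HL60. FOXM1, the transcription factor that drives late cell cycle genes, rose in HL60 by 0.50 ± 0.09 and was at 0.05 in HNT-34, 0.00 in KG1a and -0.12 in AML-193.

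Of the 4 mitotic kinases, PLK1, which acts in centrosome maturation, spindle assembly and cytokinesis, showed the largest single rise of AML-193. Its AML-193 arrays read 10.14 and 10.21 with AZA, against 9.22 and 9.38 with vehicle, a rise of 0.88 ± 0.12 (1.84-fold, adjusted p = 9.88e-05). In HNT-34 PLK1 read 9.87 and 9.83 with AZA and 9.90 and 9.62 with vehicle. In KG1a it read 9.97 on both AZA arrays and 9.97 and 10.30 on the vehicle arrays. In HL60 it read 9.86 and 9.80 with AZA and 9.42 and 9.63 with vehicle (0.31 ± 0.12, adjusted p = 0.0532). The groups separated in AML-193 and HL60 and overlapped in the other 2 lines. With the covariate PLK1 was at 0.50 in AML-193 (adjusted p = 0.332) and 0.55 in HL60 (0.0585).

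AURKA, the kinase of spindle poles, rose in HNT-34, where its arrays read 12.09 and 12.15 with AZA, against 11.63 and 11.59 with vehicle (0.51 ± 0.08, adjusted p = 0.000323). AURKA also rose in HL60 by 0.29 ± 0.08 and was at -0.19 in AML-193 (adjusted p = 0.0733) and 0.04 in KG1a. Its 2 other probe sets were at -0.03 and -0.28 in HL60, and at 0.46 and 0.40 in AML-193. PLK4, which starts the duplication of centrioles, rose in AML-193 by 0.30 ± 0.09 and fell in HL60. Its HL60 arrays read 9.90 and 10.25 with AZA, against 10.49 and 10.47 with vehicle (-0.41 ± 0.09, adjusted p = 0.00401). The 2 AZA arrays of PLK4 lay apart from each other but both under the vehicle arrays, and its 2 other probe sets were at 0.05 and -2.24 in HL60. NEK2, a kinase of centrosome separation, did not pass in any line by its brightest probe set, and its other probe set was at 1.69 in AML-193 and -2.28 in HL60.

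Of the 5 checkpoint genes, 2 rose in HNT-34, 3 rose in HL60 and 4 fell in AML-193. BUB1 encodes a kinetochore kinase that recruits the other checkpoint proteins. In HNT-34 it read 11.42 and 11.32 with AZA, against 10.40 and 10.42 with vehicle, a rise of 0.96 ± 0.08 (1.95-fold, adjusted p = 1.29e-06). In HL60 it read 10.28 and 10.46 with AZA, against 10.16 and 10.12 with vehicle (0.23 ± 0.08, adjusted p = 0.0391). Its 2 other probe sets past the filter were at -1.71 and -0.20 in HL60, the opposite direction, and the -0.20 was not called. Those below the filter were at 0.82 and 0.17 there. In AML-193 BUB1 read 10.64 and 10.47 with AZA, against 10.48 and 10.40 with vehicle, and in KG1a 10.79 and 10.88 with AZA, against 10.90 and 10.87 with vehicle. The effect of AZA on BUB1 in HNT-34 exceeded that in AML-193 by 0.85, in KG1a by 1.01 and in HL60 by 0.73 (adjusted p at most 0.000344).

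TTK rose in HNT-34 (0.42 ± 0.07) and HL60 (0.44 ± 0.07) and fell in AML-193, where its arrays read 11.32 and 11.21 with AZA, against 11.78 and 11.60 with vehicle (-0.43 ± 0.07, adjusted p = 0.000627). In KG1a TTK was at 0.13 ± 0.07. BUB1B, which encodes the checkpoint effector BUBR1, rose in HL60 (0.45 ± 0.08) and fell in AML-193 (-0.35 ± 0.08), and was at -0.19 in HNT-34 and -0.10 in KG1a. BUB3, its binding partner, fell in AML-193 by 0.32, and MAD2L1, which encodes the MAD2 protein that blocks CDC20, fell there by 0.42. Both had other probe sets that rose in AML-193, by 0.70 for BUB3 and by 2.23 for MAD2L1. With the means of all probe sets, 1 checkpoint gene rose and 2 fell in AML-193, and 2 rose and 2 fell in HL60.

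All 4 genes of the APC/C step rose in HL60, and 2 of them in HNT-34. UBE2C, the ubiquitin-conjugating enzyme that works with the APC/C, read 12.63 and 12.60 with AZA in HNT-34, against 11.73 and 11.75 with vehicle (0.88 ± 0.06, 1.84-fold, adjusted p = 3.3e-07). In KG1a it read 11.83 and 11.93 with AZA, against 11.51 and 11.52 with vehicle (0.37 ± 0.06, adjusted p = 0.00259). UBE2C also rose by 0.40 ± 0.06 in HL60 (adjusted p = 0.000316) and by 0.18 ± 0.06 in AML-193 (adjusted p = 0.0429). Its arrays did not overlap between the groups in any of the 4 lines. The call in KG1a was lost when that line was fitted alone (adjusted p = 0.0514), and with the covariate the rise in AML-193 was 0.12 (adjusted p = 0.71) and that in HL60 0.44 (0.0137).

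CDC20, the APC/C activator that the checkpoint restrains, showed the largest rise of HL60. Its HL60 arrays read 12.18 and 12.16 with AZA, against 11.21 and 11.22 with vehicle, a rise of 0.95 ± 0.09 (1.93-fold, adjusted p = 3.04e-06). In HNT-34 it read 11.44 and 11.54 with AZA and 11.34 and 11.29 with vehicle (0.17 ± 0.09, adjusted p = 0.164). In AML-193 it read 11.76 and 11.68 with AZA and 11.86 and 11.71 with vehicle, and in KG1a 11.68 and 11.82 with AZA and 11.90 and 11.69 with vehicle. The arrays overlapped in AML-193 and KG1a, and the effect in HL60 exceeded that in each of the other lines, by 1.01 over AML-193, 0.78 over HNT-34 and 1.0 over KG1a (adjusted p at most 0.000321). With the covariate the rise in HL60 was 0.78 (adjusted p = 0.00192).

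PTTG1, which encodes securin, the inhibitor of separase, rose by 0.33 ± 0.08 in HNT-34 and 0.45 ± 0.08 in HL60, and was at -0.19 in AML-193 and -0.08 in KG1a. ESPL1, the separase gene, rose in HL60 (0.34 ± 0.08) and fell in AML-193 (-0.28 ± 0.08).

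**Figure D3:**
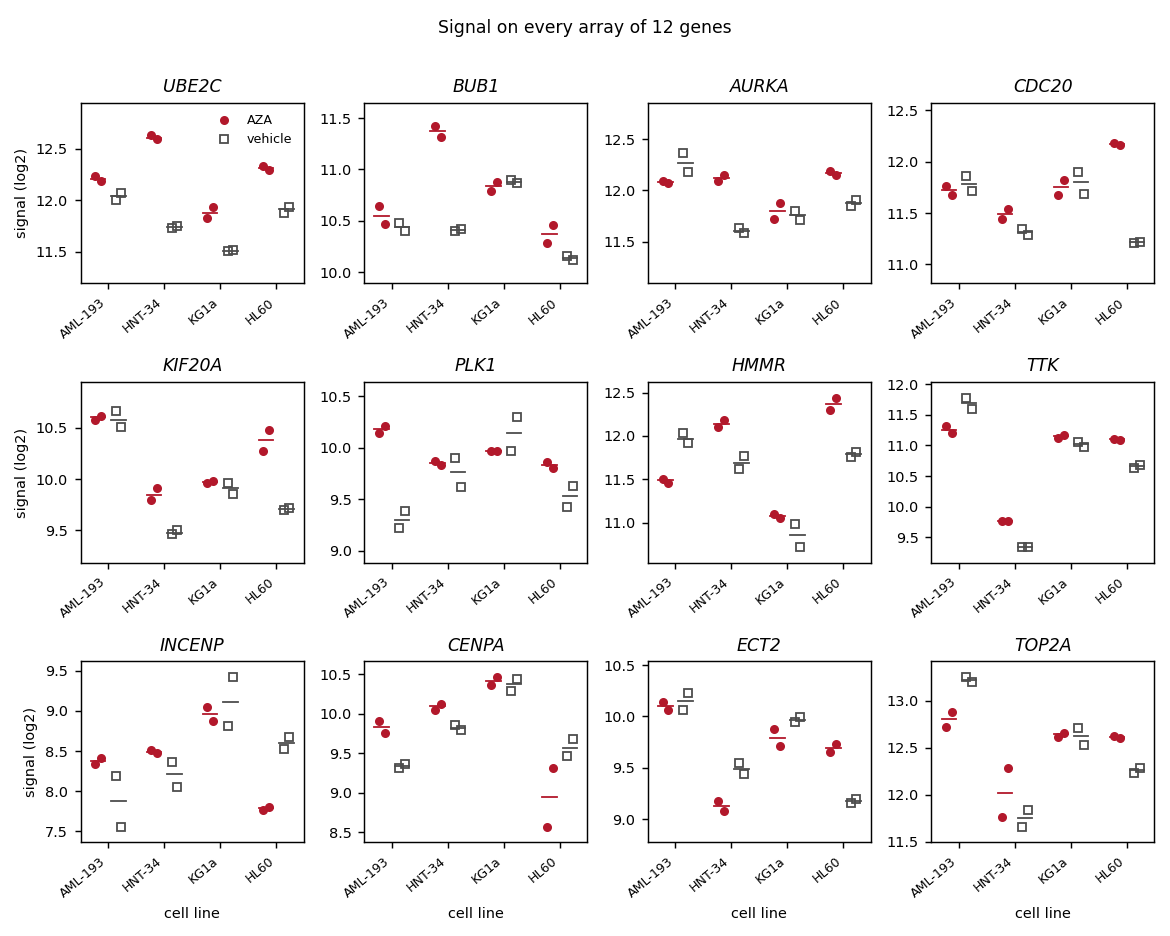
Signal (log2) of 12 genes on each of the 16 arrays, with AZA arrays as filled circles left of vehicle arrays as open squares and group means as bars. UBE2C separates in all 4 lines, BUB1 stands out in HNT-34 and CDC20 in HL60, and HMMR, TTK and TOP2A lie lower with AZA in AML-193 and higher in HL60.

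The chromosomal passenger complex couples the Aurora B kinase to centromeres and the midzone, and of its 4 genes 1 rose in AML-193, 1 rose in HNT-34 and 1 fell in HL60. INCENP, its scaffold, had the widest difference between lines of the 46 genes by brightest probe set. In HL60 it read 7.77 and 7.80 with AZA, against 8.53 and 8.67 with vehicle (-0.81 ± 0.20, 0.57-fold, adjusted p = 0.00525). In AML-193 it read 8.34 and 8.42 with AZA, against 8.19 and 7.56 with vehicle (0.51 ± 0.20, adjusted p = 0.0573). In HNT-34 it read 8.51 and 8.47 with AZA, against 8.37 and 8.05 with vehicle, and in KG1a 9.05 and 8.87 with AZA, against 8.81 and 9.42 with vehicle. The INCENP vehicle arrays had an SD of 0.44 in AML-193 and 0.43 in KG1a. BIRC5, which encodes survivin, rose in HNT-34 by 0.28 ± 0.08, and CDCA8, the borealin gene, rose in AML-193 by 0.34 ± 0.08. The CDCA8 arrays of AML-193 read 11.33 and 11.20 with AZA, against 10.87 and 10.99 with vehicle. AURKB, the kinase itself, ranged from -0.20 in HL60 to 0.14 in HNT-34 and did not pass in any line by its brightest probe set.

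Of the 6 kinetochore genes, 1 rose and 2 fell in AML-193, 1 rose in HNT-34, and 2 rose and 1 fell in HL60. CENPA encodes the histone variant that marks centromeres. Its AML-193 arrays read 9.90 and 9.76 with AZA, against 9.31 and 9.36 with vehicle (0.49 ± 0.17, adjusted p = 0.0342). Its HL60 arrays read 8.57 and 9.31 with AZA, against 9.46 and 9.68 with vehicle (-0.63 ± 0.17, adjusted p = 0.00953). In HNT-34 CENPA read 10.05 and 10.12 with AZA, against 9.85 and 9.79 with vehicle, and in KG1a 10.36 and 10.46 with AZA, against 10.29 and 10.44 with vehicle. Without HL60 AZA array 1, the lower of the pair, the change in HL60 was -0.26 and was no longer called (adjusted p = 0.0878), nor was it without vehicle array 2 (0.0797) or in HL60 fitted alone (0.0986), and the call in AML-193 was lost without any 1 of its 4 arrays (adjusted p from 0.0682 to 0.158). NUF2, a subunit of the NDC80 complex that grips microtubules, fell in AML-193. Its arrays there read 10.42 and 10.51 with AZA, against 11.15 and 11.02 with vehicle (-0.62 ± 0.07, 0.65-fold, adjusted p = 2.28e-05).

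Its partners in that complex did not pass in AML-193. NDC80 was at -0.16 in AML-193 (adjusted p = 0.0952) and SPC25 at -0.22 (0.0785), while SPC25 rose in HNT-34 by 0.37 ± 0.09. CENPF, a large outer kinetochore protein, rose in HL60 by 0.54 ± 0.11. CENPE, the kinesin that moves chromosomes to the spindle equator, rose in HL60 (0.29 ± 0.08) and fell in AML-193 (-0.32 ± 0.08).

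Of the 6 kinesins, 3 rose in HL60, 2 in HNT-34 and 1 in AML-193, and by their brightest probe sets none fell (limma). The mean of all probe sets had 1 lower in each of AML-193, KG1a and HL60, KIF23, KIF14 and KIF2C in that order. KIF20A, a motor that brings Aurora B to the central spindle, read 10.27 and 10.48 with AZA in HL60, against 9.70 and 9.72 with vehicle (0.67 ± 0.08, 1.59-fold, adjusted p = 4.92e-05), and it rose by 0.37 ± 0.08 in HNT-34. KIF4A, a chromosome-bound motor, rose by 0.33 ± 0.07 in HNT-34 and 0.43 ± 0.07 in HL60. KIF14 rose in HL60 by 0.37 ± 0.08 and was at -0.20 in KG1a. KIF11, the motor that pushes spindle poles apart, rose in AML-193 by 0.24 ± 0.08. KIF23 and KIF2C, motors of the midzone and of microtubule shortening, stayed within -0.14 and 0.15 in all lines and did not pass by their brightest probe sets. A second KIF23 probe set fell by 1.32 in AML-193 and rose by 0.64 in HL60. A second KIF2C probe set rose by 0.60 in AML-193 and 0.27 in HNT-34 and fell by 0.38 in HL60.

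Of the 6 spindle proteins, 3 rose in HNT-34, 4 rose and 1 fell in HL60, and 2 rose and 2 fell in AML-193. HMMR read 12.10 and 12.18 with AZA in HNT-34, against 11.62 and 11.77 with vehicle (0.44 ± 0.09), and 12.30 and 12.44 with AZA in HL60, against 11.76 and 11.81 with vehicle (0.58 ± 0.09, adjusted p = 0.000323). In AML-193 it read 11.51 and 11.46 with AZA, against 12.03 and 11.92 with vehicle (-0.49 ± 0.09, adjusted p = 0.00128). In KG1a it read 11.10 and 11.06 with AZA, against 10.99 and 10.72 with vehicle (0.22 ± 0.09, adjusted p = 0.175). The groups did not overlap in any line, and the AZA arrays were the lower ones in AML-193 alone among the 4 lines. A second HMMR probe set rose by 0.51 in AML-193, so that the mean of both was 0.01.

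DLGAP5, which stabilizes microtubules near chromosomes, rose in 3 lines, by 0.31 ± 0.09 in AML-193, 0.49 ± 0.09 in HNT-34 and 0.39 ± 0.09 in HL60. Its HNT-34 arrays read 10.78 and 10.86 with AZA, against 10.40 and 10.28 with vehicle. TPX2, which activates AURKA on the spindle, read 11.93 and 11.85 with AZA in AML-193, against 11.25 and 11.53 with vehicle (0.50 ± 0.09, adjusted p = 0.000977), and was between -0.12 and 0.02 in the other lines. NUSAP1, a microtubule bundler, rose in HNT-34 (0.38 ± 0.06) and HL60 (0.41 ± 0.06) and fell in AML-193 (-0.23 ± 0.06). ASPM, a protein of spindle poles, rose in HL60 by 0.33 ± 0.11. PRC1, which bundles the microtubules of the midzone, read 11.84 and 12.04 with AZA in HL60, against 12.22 and 12.26 with vehicle (-0.30 ± 0.08, adjusted p = 0.00735).

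Both cytokinesis genes rose in HL60 by their brightest probe sets, and neither passed there with the mean of all probe sets. ANLN, the scaffold of the contractile ring, read 10.72 and 10.67 with AZA there, against 10.06 and 10.05 with vehicle (0.64 ± 0.10, 1.55-fold, adjusted p = 0.000208). Its other probe set was at -0.32 in HL60, the opposite sign (adjusted p = 0.0629 in the fit of single probe sets). ECT2, the exchange factor that activates RhoA at the equator, rose in HL60 by 0.51 ± 0.08, while its other probe set past the filter fell there by 0.66. ECT2 was the 1 gene called lower in HNT-34, where it read 9.18 and 9.08 with AZA, against 9.55 and 9.44 with vehicle (-0.36 ± 0.08, adjusted p = 0.00501). The effect of AZA on ECT2 in HNT-34 lay 0.88 under that in HL60 (adjusted p = 0.000121).

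TOP2A, the topoisomerase that untangles sister chromatids, read 12.72 and 12.88 with AZA in AML-193, against 13.25 and 13.20 with vehicle (-0.43 ± 0.13, adjusted p = 0.0225), and rose in HL60 by 0.36 ± 0.13 (adjusted p = 0.0483). Its call in AML-193 was lost without either vehicle array or without AZA array 1 (adjusted p from 0.0565 to 0.139). MKI67, which encodes the proliferation marker Ki-67, rose in AML-193 by 0.31 ± 0.11 and was at 0.20 in HNT-34, 0.30 in KG1a and 0.13 in HL60. Its other probe sets were at 1.37, 0.01 and -0.02 in AML-193. Its effect was not shown to differ between lines (F-test, adjusted p = 0.655).

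Probe sets of 1 gene lay farther apart in AML-193 and HL60, the lines whose arms differed in 3′ minus 5′ signal, than in HNT-34 and KG1a. Of the 24 genes with more than 1 probe set past the filter, 5 had probe sets called in opposite directions in AML-193 (CCNA2, CDK1, BUB3, MAD2L1 and HMMR), where 12.3% of all genes with several probe sets did. In HL60 4 did (CDC25C, BUB1, BIRC5 and ECT2), against 11.8% of all genes. None did in HNT-34 or KG1a, where 0.451% and 0.0728% of all genes did. The median spread between probe sets of 1 gene was 0.81 log2 units in AML-193, 0.19 in HNT-34, 0.11 in KG1a and 0.85 in HL60, against 0.46, 0.22, 0.15 and 0.47 over all genes with several probe sets. The part of the control signals in these gaps was not tested. Over the 46 genes by brightest probe set, the effects in AML-193 and HL60 correlated at r = -0.40, against -0.11 over all genes tested. Over the 86 probe sets, the effects in AML-193 and HL60 did so at r = -0.75, against -0.33 over 26422 probe sets. The points share libraries, and the probe sets also genes, so the values are a description.

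**Figure D4:**
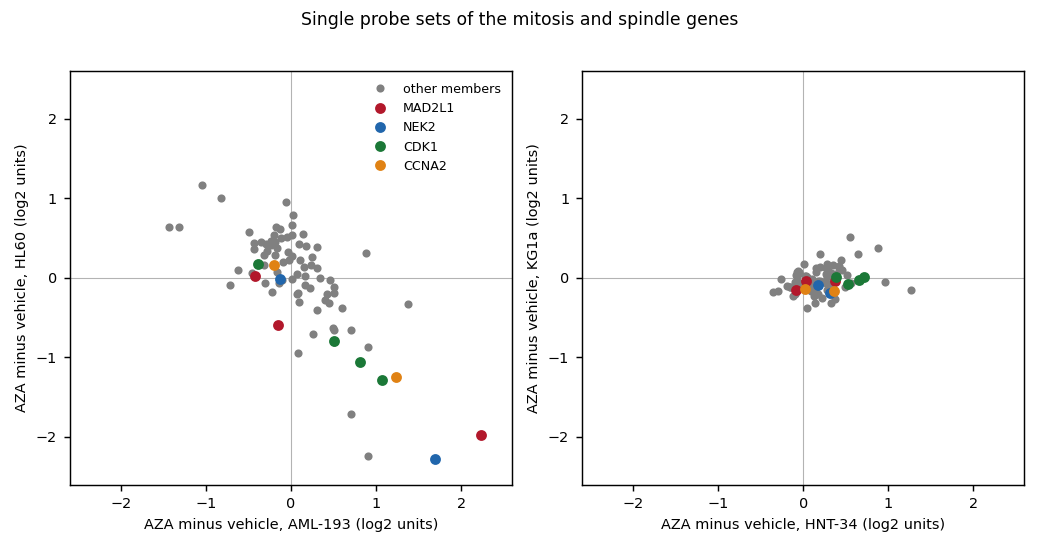
AZA minus vehicle (log2 units) of the 86 single probe sets of the 46 genes, AML-193 against HL60 (left) and HNT-34 against KG1a (right), with the probe sets of MAD2L1, NEK2, CDK1 and CCNA2 in colour. In AML-193 and HL60 the points run from upper left to lower right, reaching 2.23 and -1.98 for 1 probe set of MAD2L1, while in HNT-34 and KG1a they stay in a compact cloud.

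Of 26422 single probe sets of all genes, 21.5% rose and 19.4% fell in AML-193, 12.5% and 12.9% in HNT-34, 4.32% and 2.44% in KG1a, and 20.9% and 20.5% in HL60. Genes with several probe sets past the filter, all of them called the same way, were few. In HNT-34 they were CCNB1, CDK1, NUSAP1 and HMMR, all higher, and the 4 probe sets of CDK1 rose there by 0.39 to 0.72. In HL60 they were CCNB1, ESPL1, CENPF and ASPM, all higher, and in AML-193 only TOP2A, lower with 3 probe sets. A further 8 genes higher in HNT-34, 11 higher and 3 lower in HL60, and 6 higher and 4 lower in AML-193 have 1 probe set past the filter, which repeats the call already given. Among these are UBE2C, CDC20 and KIF20A, and INCENP, CENPA and PRC1, the 3 lower in HL60. BUB1 and AURKA, with 3 probe sets past the filter each, rose in 2 of them in HNT-34.

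With the mean of all probe sets of a gene in place of the brightest, 39 calls changed over the 46 genes, 18 in AML-193, 3 in HNT-34, 2 in KG1a and 16 in HL60. In AML-193 CCNA2 (0.52), CDK1 (0.50) and MAD2L1 (0.56) turned from lower to higher. CCNB1 was at 0.19, CDC25C at 0.05, BUB3 at -0.02, NUSAP1 at -0.17 and HMMR at 0.01, and these 5 lost their call. Newly higher there were CCNB2 (0.24), AURKA (0.22), NEK2 (0.78), BIRC5 (0.24) and KIF2C (0.30), and newly lower PTTG1 (-0.19), AURKB (-0.33), CENPF (-0.40), KIF23 (-0.73) and ASPM (-0.63). In HL60 9 genes called higher lost the call: CDC25C (-0.12), AURKA (-0.01), BUB1 (-0.14), KIF14 (0.12), NUSAP1 (0.19), HMMR (0.20), ANLN (0.16), ECT2 (-0.07) and TOP2A (0.35). PLK1 (0.31) became higher there, and CCNA2 (-0.55), CDK1 (-0.74), NEK2 (-1.15), BUB3 (-0.28), MAD2L1 (-0.85) and KIF2C (-0.20) lower. In HNT-34 CCNB2 (-0.12) and ECT2 (-0.21) lost their call and KIF2C (0.21) became higher, and in KG1a HMMR (0.26) became higher and KIF14 (-0.29) lower. For genes with a single probe set, such as PTTG1 in AML-193, the estimate is the same and only the adjustment over all genes differs.

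The effect of AZA differed between the 4 lines for 34 of the 46 genes (F-test), where 57.1% of all genes tested differed. With the covariate it differed for 18 of the 46. The share of all genes in that fit was not counted, so the 18 cannot be set against it. The widest ranges between 2 lines were those of INCENP (1.32), CENPA (1.12), HMMR (1.07), PLK1 (1.04), CDC20 (1.01) and BUB1 (1.01) by brightest probe set. With the mean of all probe sets they were those of NEK2 (1.93), ASPM (1.47), MAD2L1 (1.41) and INCENP (1.32). By pairs, again by brightest probe set, HNT-34 minus KG1a was higher for 9 genes and lower for 0, where 7.07% and 8.10% of all genes were. KG1a minus HL60 was higher for 1 and lower for 17 (11.5% and 15.4% of all genes), and HNT-34 minus HL60 was higher for 6 and lower for 8 (15.0% and 20.8%). AML-193 minus HL60 was higher for 7 and lower for 24 (20.1% and 27.2%). AML-193 minus HNT-34 was higher for 2 and lower for 16 (15.6% and 15.9%), and AML-193 minus KG1a was higher for 4 and lower for 6 (11.2% and 13.2%).

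In the mean of the 4 lines 16 genes rose and 1 fell, where 23.4% and 16.5% of all genes did, with a median of 0.09 against 0.03. UBE2C led (0.46 ± 0.03, adjusted p = 2e-07), followed by BUB1 (0.31 ± 0.04), PLK1 (0.28 ± 0.06), KIF20A (0.28 ± 0.04) and DLGAP5 (0.27 ± 0.05), and NUF2 fell (-0.14 ± 0.03). BUB1 was called in 2 of the lines, PLK1 in 1 and KIF20A in 2.

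Other genes of the division machinery were counted in the same way. The shares of all genes given above (15.4% higher and 14.8% lower in HNT-34, 25.2% and 16% in HL60, 20.7% and 20.3% in AML-193, 6.56% and 3.37% in KG1a) apply to each count by brightest probe set. With the mean of all probe sets the shares were 15.2% and 14.5% in HNT-34, 19.7% and 19.8% in HL60, 21.4% and 17.4% in AML-193, and 6.55% and 4.00% in KG1a. These apply to each count by that mean, here and below. Of 63 further mitotic genes tested, 14 rose (22.2%) and 8 fell (12.7%) in HNT-34, 27 (42.9%) and 14 (22.2%) did in HL60, 15 (23.8%) and 23 (36.5%) did in AML-193, and none passed in KG1a. When all probe sets were averaged, 13 rose and 7 fell in HNT-34, 23 and 19 in HL60, 17 and 18 in AML-193, and 0 and 1 in KG1a. With the 3′ minus 5′ covariate 15 rose and 8 fell in HNT-34, and 13 and 4 in HL60. None of the 63 then passed in AML-193, and 0 rose and 2 fell in KG1a. The shares of all genes with the covariate were 16.7% and 15.8% in HNT-34 and 9.67% and 5.66% in HL60. They were 1.54% and 1.12% in AML-193 and 7.67% and 4.35% in KG1a, and apply to each covariate count below. FAM83D, which helps align chromosomes, rose by 0.85 ± 0.15 in HNT-34, and KPNA2, a nuclear importer, by 0.69 ± 0.09. SGO2, a shugoshin that protects cohesin, rose by 0.80 ± 0.09 in HNT-34 and 1.01 ± 0.09 in HL60 and fell by 0.56 in AML-193. CKS1B, a CDK-binding protein, rose by 1.5 ± 0.17 in AML-193 and fell by 1.79 in HL60. With the covariate neither SGO2 nor CKS1B was called in AML-193. Of 14 APC/C subunits 3 rose and 2 fell in HNT-34, 7 rose and 3 fell in HL60, 3 rose and 5 fell in AML-193, and none passed in KG1a. In HL60 2 APC/C subunits rose and 3 fell with the mean of all probe sets. With the covariate 1 rose and 1 fell in HL60, none passed in AML-193, and 3 rose and 2 fell in HNT-34. Of 12 tubulin genes 6 rose and 1 fell in HNT-34, 6 rose and 2 fell in HL60, 3 rose and 2 fell in AML-193, and 2 rose and 1 fell in KG1a. TUBB2A rose in every line (0.90 in AML-193, 1.18 in HNT-34, 0.90 in KG1a and 0.90 in HL60), and TUBE1 fell in every line (-2.09, -1.39, -0.57 and -0.95 in the same order). With the covariate 0 tubulin genes rose and 2 fell in AML-193, so that TUBB2A was not called there. In HL60 3 then rose and 1 fell, in HNT-34 6 and 1, and in KG1a 2 and 1. Of 20 condensin and cohesin genes 1 rose and 7 fell in HNT-34, with SMC3, a cohesin subunit, at -0.63 ± 0.19, and 4 rose and 5 fell in HL60, or 1 and 9 with the mean of all probe sets. With the covariate 1 rose and 9 fell in HNT-34, and 1 rose and 0 fell in HL60.

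Genes of the G1/S transition and of DNA replication were lower more often than higher in HNT-34 and HL60. Of 45 tested, 3 rose (6.67%) and 21 fell (46.7%) in HNT-34 (median -0.26), 7 rose (15.6%) and 17 fell (37.8%) in HL60 (-0.12), 10 rose (22.2%) and 16 fell (35.6%) in AML-193 (-0.11), and none rose and 2 fell in KG1a (-0.13). Averaged over all probe sets, 4 rose and 22 fell in HNT-34 and 6 and 26 in HL60, while in AML-193 15 rose and 10 fell, with a median of 0.06. With the 3′ minus 5′ covariate 3 rose and 22 fell in HNT-34, while 2 rose and 6 fell in HL60 (median -0.08). In AML-193 0 then rose and 1 fell, and in KG1a 0 and 2. The medians of the 46 mitosis and spindle genes were 0.16 in HNT-34, 0.27 in HL60, -0.12 in AML-193 and -0.01 in KG1a. In HNT-34 UHRF1, which brings DNA methylation to copied DNA, fell by 0.85 (it rose by 0.41 in HL60), and MCM5, a subunit of the replicative helicase, by 0.73. In HL60 PRIM1, a primase subunit, fell by 1.51, and CCND1, cyclin D1, rose by 0.86 ± 0.11.

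**Figure D5:**
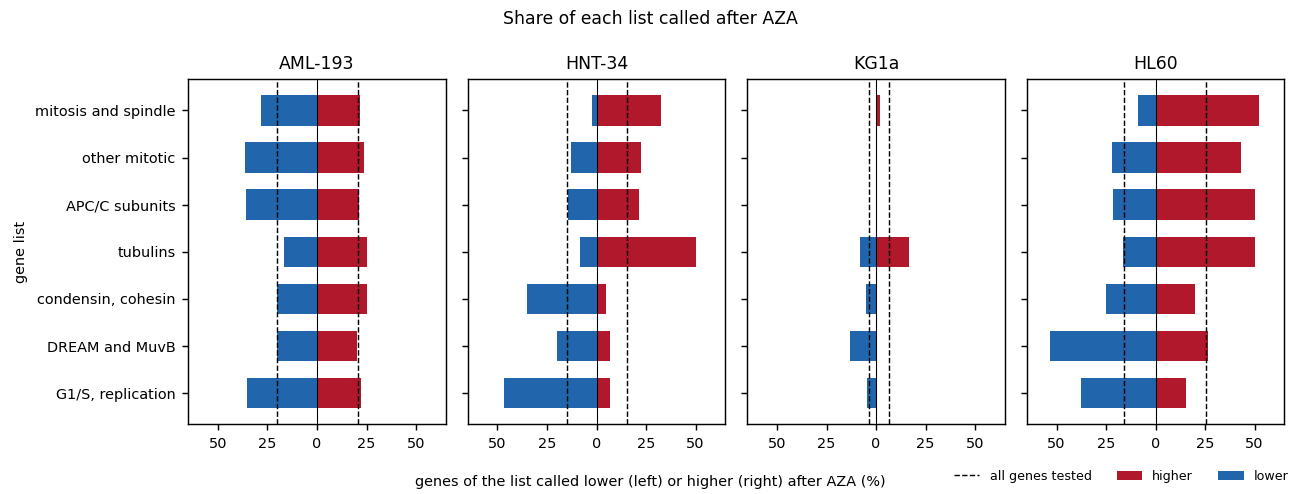
Percent of each gene list called higher (red, right) or lower (blue, left) after AZA in each line, with dashed lines at the share of all 14038 genes tested. In HNT-34 the mitosis and spindle genes stand to the right (15 higher, 1 lower) and the G1/S and replication genes to the left (3 higher, 21 lower), and in KG1a few genes of any list were called.

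Of 15 DREAM and MuvB genes tested, which regulate such promoters, 1 rose (6.67%) and 3 fell (20%) in HNT-34, 4 (26.7%) and 8 (53.3%) did in HL60, 3 (20%) and 3 (20%) did in AML-193, and none rose and 2 fell in KG1a. For the mean of all probe sets, 2 rose and 2 fell in HNT-34, 5 and 5 in HL60, 3 and 3 in AML-193, and 0 and 0 in KG1a. With the 3′ minus 5′ covariate 1 rose and 1 fell in HL60, and 0 rose and 1 fell in AML-193. In HNT-34 1 then rose and 3 fell, and in KG1a 0 and 2. LIN9, a MuvB subunit, fell by 0.62 in HNT-34 (adjusted p = 0.000104), 0.30 in KG1a (0.0422) and 0.36 in HL60 (0.00436), and was at -0.20 in AML-193 (0.0774). RBL1, the p107 pocket protein, fell by 0.73 in HNT-34 and 0.34 in HL60. RBL2, the p130 pocket protein of DREAM, rose by 0.24 in AML-193 and fell by 0.24 in HL60. MYBL2, which takes the place of the pocket proteins on MuvB in cycling cells, rose in HL60 (0.48 ± 0.09) and was at 0.18 in HNT-34, 0.16 in KG1a and -0.21 in AML-193. E2F4, the partner of the pocket proteins, was at 0.19 in AML-193, 0.07 in HNT-34, 0.15 in KG1a and -0.19 in HL60, and passed in AML-193 and HL60.

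CDKN1A, which encodes the CDK inhibitor p21, rose in AML-193 (1.17 ± 0.14), HNT-34 (1.08 ± 0.14) and KG1a (0.89 ± 0.14) and was at 0.36 ± 0.14 in HL60 (adjusted p = 0.0584). CDKN2A, the locus of p16 and ARF, rose in HNT-34 (1.55 ± 0.09), KG1a (1.61 ± 0.09) and HL60 (0.28 ± 0.09). CDKN1B, the p27 gene, fell in AML-193 (-0.46), HNT-34 (-0.47) and HL60 (-0.29). Of 6 CDK inhibitor genes tested, 2 rose and 3 fell in AML-193 (20.7% and 20.3% of all genes). None passed there with the 3′ minus 5′ covariate (1.54% and 1.12%). In HL60 2 rose and 2 fell (25.2% and 16%), or 1 and 1 with the covariate (9.67% and 5.66%). The mean of all probe sets gave 0 higher and 3 lower in HL60 (19.7% and 19.8%), so that CDKN2A was not called. With the covariate 2 rose and 2 fell in HNT-34 and 2 and 0 in KG1a, as without it. The kinases that hold CDK1 inactive were WEE1, which fell in AML-193 (-0.21) and HNT-34 (-0.33), and PKMYT1, which fell in AML-193 (-0.59 ± 0.09). These falls are by brightest probe set and without the covariate, with which only 1.12% of all genes were lower in AML-193.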

How the data were processed

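The members and gene lists were chosen with earlier results of these data known. The log2 signal of each probe set was used as the authors deposited it. The submitters' processing notes name RMA and affy, whose versions and settings are not given in the sources used here. All 16 arrays share 1 distribution (median 6.73, from 3.26 to 15.3), and 2 arrays per group limit the precision. Of 54675 probe sets, 41097 had exactly 1 symbol in the platform annotation, and the brightest of a gene stood for it. The 46 genes have 93 such probe sets, 86 of them past the filter. Genes at or above the array median on at least 2 arrays were tested (14038). A linear model over all 8 groups was fitted (limma 3.58.1, R 4.3.3, empirical Bayes, 8 residual and 4.8 prior degrees of freedom), adjusted by Benjamini and Hochberg over all genes tested, with calls under 0.05. Tables and figures were made in Python 3.11.15 with matplotlib 3.10.9. On simulated data with 14038 genes the fit recovered 71.6% of changes of 0.5 log2 units in AML-193, 80.6% in HNT-34, 70.1% in KG1a and 77.6% in HL60.

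Every array is given, per line, for up to 4 called rises and 4 called falls with the largest change whose groups did not overlap, and for the 6 genes with the widest range between lines. Other lists give up to 3 called genes per line with the largest change, and MYBL2, LIN9, E2F4, RBL1, RBL2, CDKN1A, CDKN1B, WEE1 and PKMYT1 could always be named. Arrays of other genes, and the vehicle levels and probe sets singled out, were chosen after their values were seen. Alternatives were the choice of probe set, the filter, repeated quantile or cyclic loess normalization, trended robust moderation, the 3′ minus 5′ covariate, each line alone, a minimum change and each array left out.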

Additional observations from a re-analysis of the deposited data

Results flagged for a closer look

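The effect of AZA differed between the 4 lines by limma's F-test for 34 of the 46 genes, where 57.1% of all genes tested differed. With the 3′ minus 5′ signal as a covariate it differed for 18, and the share of all genes was not counted there. The values below are the gaps by brightest probe set, in log2 units, between the line with the highest and the line with the lowest AZA minus vehicle. Among regulators of mitotic entry the gap was 0.37 for CCNA2, 0.77 for CDK1, 0.75 for CDC25B, 0.72 for CDC25C and 0.61 for FOXM1. Among mitotic kinases it was 1.04 for PLK1, 0.71 for PLK4 and 0.69 for AURKA. In the checkpoint it was 1.01 for BUB1, 0.79 for BUB1B, 0.48 for BUB3 and 0.87 for TTK. In the APC/C step it was 1.01 for CDC20, 0.70 for UBE2C, 0.64 for PTTG1 and 0.62 for ESPL1. In the passenger complex it was 0.37 for BIRC5 and 1.32 for INCENP. At the kinetochore it was 1.12 for CENPA, 0.60 for CENPE, 0.74 for CENPF, 0.72 for NUF2 and 0.63 for SPC25. Among kinesins it was 0.65 for KIF20A, 0.37 for KIF4A and 0.58 for KIF14. Among spindle proteins it was 0.62 for TPX2, 0.64 for NUSAP1, 0.39 for PRC1, 0.59 for DLGAP5 and 1.07 for HMMR. For cytokinesis it was 0.82 for ANLN and 0.88 for ECT2, and for TOP2A it was 0.78. AML-193 was the highest line for PLK1, PLK4, INCENP, CENPA, TPX2 and PRC1, HNT-34 for CDK1, AURKA, BUB1, UBE2C, BIRC5, SPC25 and DLGAP5, and HL60 for the other genes listed.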

How the results depend on the processing

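No paired analysis was possible because the labels carry no replicate numbers. With the mean of all probe sets the genes called were 17 higher in AML-193, 0 lower in HNT-34, 2 higher and 1 lower in KG1a, 10 lower in HL60 and 3 lower in the mean of the lines. Without probe sets of the _x_at and _s_at kinds they were 0 lower in HNT-34 and 2 lower in the mean, and with trended robust moderation 2 lower in HNT-34. With the 3′ minus 5′ covariate none were called in AML-193 (0 higher and 0 lower), 7 higher and 1 lower in HL60, and 18 differed between lines. Fitted alone, AML-193 had 8 lower, KG1a 0 higher and HL60 1 lower. With every probe set fitted singly, a setting chosen after seeing the data, genes with all probe sets called were 6 higher and 5 lower in AML-193, 0 lower in HNT-34 and 15 higher in HL60, and genes with at least 1 called and none opposed were 10 lower in HL60. With a change of at least 0.5 log2 units the counts were 1 higher and 1 lower in AML-193, 3 and 0 in HNT-34, 0 higher in KG1a, 7 and 2 in HL60, and 0 and 0 in the mean, since that setting removes smaller changes. Leaving out 1 array gave 2 to 11 higher and 6 to 15 lower in AML-193, 11 to 17 and 0 to 1 in HNT-34, 1 to 2 and 0 in KG1a, 18 to 25 and 2 to 4 in HL60, 16 to 19 and 1 in the mean, 30 to 36 differing in effect and 45 to 46 in vehicle level. Of 264 values of named genes under alternatives, 227 kept direction and call, 34 lost the call and 3 turned: HMMR in AML-193 was 0.01 with the mean of all probe sets, and without _x_at and _s_at probe sets ANLN was -0.32 and PLK4 0.05 in HL60. Except as stated, the cause was not tested. All 22 named changes kept direction and call without the filter, under both normalizations and with trended robust moderation.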
